A study of Coturnix japonica with 20 samples.

Results

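Female and male Japanese quail (Coturnix japonica) embryos that had both been exposed to ethinylestradiol were compared by RNA sequencing of the left lobe of the liver at embryonic day 9. Ethinylestradiol (EE2) is a synthetic estrogen, given here as a single dose of 3.33 µg per g of egg, in 10 µl injected into the air cell before incubation began. The comparison rests on 6 EE2 females and 4 EE2 males, 10 of the 20 libraries of the series. The other 10 libraries came from 5 females and 5 males given the solvent alone, dimethyl sulfoxide, and none of them enters the EE2 means, although all 20 libraries share 1 estimate of the spread. Each library was taken as 1 embryo, with sex and treatment as labelled. The strain, the method of sexing and the parents are not given in the sources used here, so the p-values set each difference only against the scatter among these libraries. All 13501 genes with enough counts were tested, and autosomal genes (12213) were kept apart from genes of the Z sex chromosome (604). The remainder comprised 671 genes on unplaced scaffolds and 13 mitochondrial genes. No gene of the table used here lay on W.

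In birds the female carries a Z and a W chromosome and the male a pair of Z chromosomes, and dosage compensation of Z is partial, so many Z genes are expressed more highly in males. Estrogen turns the liver of a laying hen to the production of yolk proteins and of lipoproteins for the egg, through estrogen receptors in the hepatocyte. The liver of a male or an embryo, which makes little estrogen-driven yolk protein by itself, can be brought to the same response by added estrogen. The hepatocyte also makes most plasma proteins, among them albumin, clotting factors and their inhibitors.

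Total estimated counts of the 10 EE2 libraries lay between 26776988 and 30272313. The hepatocyte genes ALB and APOB were abundant in all of them, at 30010 CPM (counts scaled to a common library size) or more. Across the autosomal genes, the first principal component held 34.88% of the variance. It placed the 10 solvent libraries between -33.17 and -21.86 and 9 EE2 libraries between 17.91 and 35.7. EE2 male replicate 3 stood apart from both at -1.735, although its APOB level was within the range of the other EE2 libraries. Results are therefore given with and without it. Of the other EE2 libraries, males 4, 5 and 6 lay at 23.95, 29.73 and 17.91 and the 6 females between 27.29 and 35.7. Leaving out male 3 thus does not even out the sexes on this component. EE2 male replicates 4 and 5 carried striated muscle transcripts, which are described with the genes they touch. The Z genes followed the labelled sex in every EE2 library: the median female minus male log2 difference of Z genes, taken between each library and the mean of the other sex, lay between -0.4271 and -0.3298. In whole liver, fewer cells of a type and less RNA per cell cannot be told apart.

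In EE2 embryos 873 genes differed between the sexes, 6.47% of the 13501 tested, at a Benjamini-Hochberg adjusted p under 0.05 in edgeR's quasi-likelihood test. Among autosomal genes, 287 were higher in females (2.35%) and 323 were higher in males (2.64%). Among Z genes, 6 were higher in females (0.993%) and 235 were higher in males (38.9%). The autosomal differences were mostly under 2-fold: 39 of the female-higher and 80 of the male-higher genes reached that size, and the median log2 fold change (female minus male throughout) was 0.42 and -0.63, respectively. Every EE2 female lay on one side of every EE2 male for 209 of the 287 and for 196 of the 323 genes. With the spread taken from the EE2 libraries alone, 186 autosomal genes were higher in females and 252 in males. Over all autosomal genes, called or not, the groups failed to overlap for 776 (6.35%).

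Without EE2 male replicate 3, 89 autosomal genes were higher in females (0.721% of 12339) and 151 were higher in males (1.22%), of which 83 and 135 were also called with all libraries. The Z genes were less affected, with 4 higher in females (0.657% of 609) and 194 higher in males (31.9%). Leaving out any 1 of the 20 libraries in turn, 57 of the 287 female-higher and 88 of the 323 male-higher autosomal genes were called every time, against 179 of the 235 male-higher Z genes. Autosomal calls also fell by more than 1.5 times without EE2 female replicate 9 (156 higher in females, 212 in males), and the female-higher calls did so without EE2 male replicate 4 (166) or 6 (158). Each EE2 library was also placed by the genes called without it that were also among the 13501 tested with all libraries. EE2 male replicate 3 lay nearer the other males for 72 of 89 female-higher autosomal genes (80.9%) and for 101 of 146 male-higher ones (69.2%). EE2 male replicate 5 did so for 57.7% and 51% and EE2 female replicate 1 lay nearer the other females for 56.9% and 65.2%, while for male-higher Z genes all 10 libraries lay nearer their own sex in 92.4% to 96.8%.

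**Figure D1:**
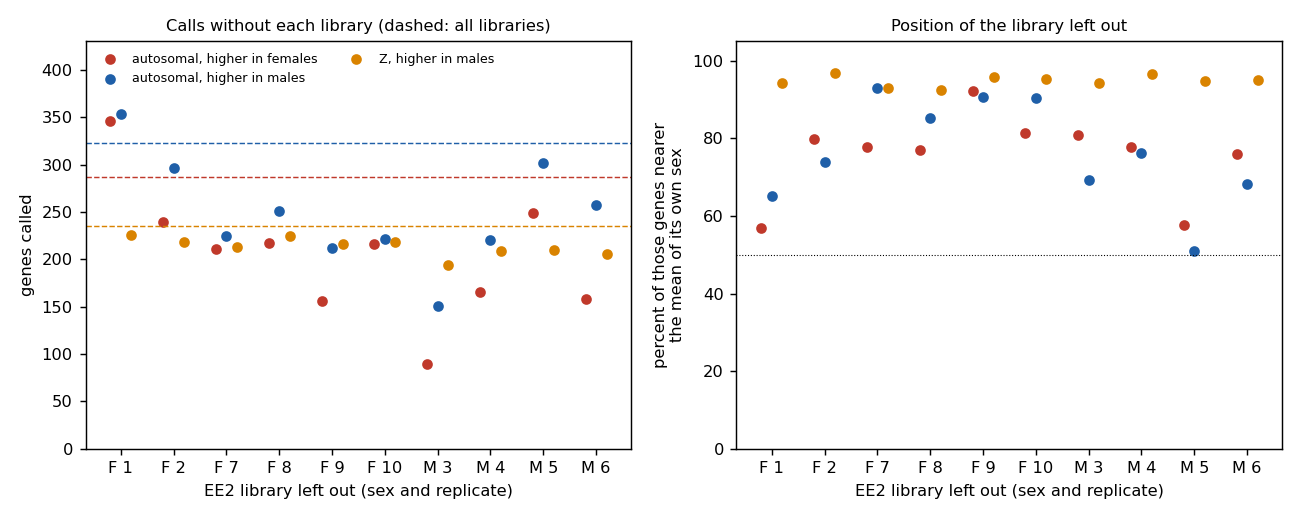
Left, the number of genes called between EE2 females and EE2 males (vertical axis) when the library on the horizontal axis is left out, with dashed lines for all libraries. Right, the percent of those genes, where also tested with all libraries, for which the library left out lay nearer the mean of its own sex on the log2 scale, with a dotted line at 50%. Autosomal calls fall to 89 and 151 without male replicate 3, while Z calls stay between 194 and 226.

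Many plasma protein genes of the hepatocyte were lower in EE2 females than in EE2 males. Of 26 tested genes for coagulation, complement and the acute phase, 10 were higher in males and 0 in females, with 15 at an unadjusted p under 0.05. The 10 were SERPIND1, AMBP, SERPINC1, SERPINF2, C8B, AHSG, ITIH2, F9, CFI and F2. Of 11 plasma carrier genes, 6 were higher in males, namely GC, ALB, AMBP, AHSG, APOH and FETUB. The list medians were -0.52 and -0.66, against 0.02 over all autosomal genes. Of all autosomal genes 2.64% were higher in males and 2.35% in females. The share of all genes at an unadjusted p under 0.05 is not given here. List counts at that cut, here and below, therefore have no background beside them. limma voom also called 10 and 6 higher in males and 0 higher in females, and DESeq2 called 11 and 7, again with 0 higher in females. Without EE2 male replicate 3, 5 of 26 and 4 of 11 were higher in males, beside 1.22% of all autosomal genes, with medians of -0.45 and -0.55.

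ALB, which encodes serum albumin, had a lowest, median and highest level of 30010, 45330 and 73180 CPM in the 6 EE2 females and stood at 150700, 108400, 87280 and 107000 CPM in EE2 males 3, 4, 5 and 6. Every male lay above every female, with male 3 the highest (log2 fold change -1.24 with SE 0.221, adjusted p = 0.00157). Without male 3 the log2 fold change was -1.07 (adjusted p = 0.0115). In solvent embryos ALB was at 146400 ± 21740 CPM in females (SD, n = 5) and 103500 ± 25260 CPM in males (SD, n = 5), and the sex difference was not called there (adjusted p = 0.475). The difference between the treatments in the sex effect was itself called for ALB (log2 difference -1.74 with SE 0.313, adjusted p = 0.0232). GC, the vitamin D-binding protein of plasma, was at 1844, 1879 and 2673 CPM in EE2 females (lowest, median, highest) and at 4842, 4212, 3103 and 3796 CPM in EE2 males 3 to 6. The groups did not overlap (log2 fold change -0.92 with SE 0.145, adjusted p = 0.000454), and without male 3 the value was -0.81 (adjusted p = 0.00346).

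SERPIND1, heparin cofactor II, was at 833, 1047 and 1118 CPM in EE2 females and 2101, 1825, 1517 and 1550 CPM in the 4 males, again without overlap (log2 fold change -0.79 with SE 0.134, adjusted p = 0.00103). AMBP, the precursor of alpha-1-microglobulin and bikunin, was at 946, 1043 and 1308 CPM and 2090, 1843, 1434 and 1516 CPM (log2 fold change -0.66 with SE 0.128, adjusted p = 0.00368), with the lowest male just above the highest female. SERPINC1, antithrombin, was at 664, 839 and 1178 CPM and 1817, 1553, 1131 and 1512 CPM (log2 fold change -0.79 with SE 0.16, adjusted p = 0.00465). For SERPINC1 male 5 fell within the female range. AHSG, fetuin-A, had a larger fold than these (197, 373 and 502 CPM in females, 1782, 1168, 902 and 688 CPM in males; log2 fold change -1.67 with SE 0.389, adjusted p = 0.014), but its call was lost without male 3, at -1.36 (adjusted p = 0.0749). The call of APOH, beta-2-glycoprotein I (log2 fold change -0.83 with SE 0.202, adjusted p = 0.0174), was lost without male 3 or without male 4, with a highest adjusted p of 0.0717. Among the 9 hepatocyte markers, 5 were higher in males (ALB, AMBP, SERPINC1, AHSG and HNF4A) and 3 without male 3. HNF4A, a transcription factor of hepatocyte identity, differed least (log2 fold change -0.36 with SE 0.0996, adjusted p = 0.0332), and its call was lost without male 3 or without any of EE2 females 7 to 10.

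**Figure D2:**
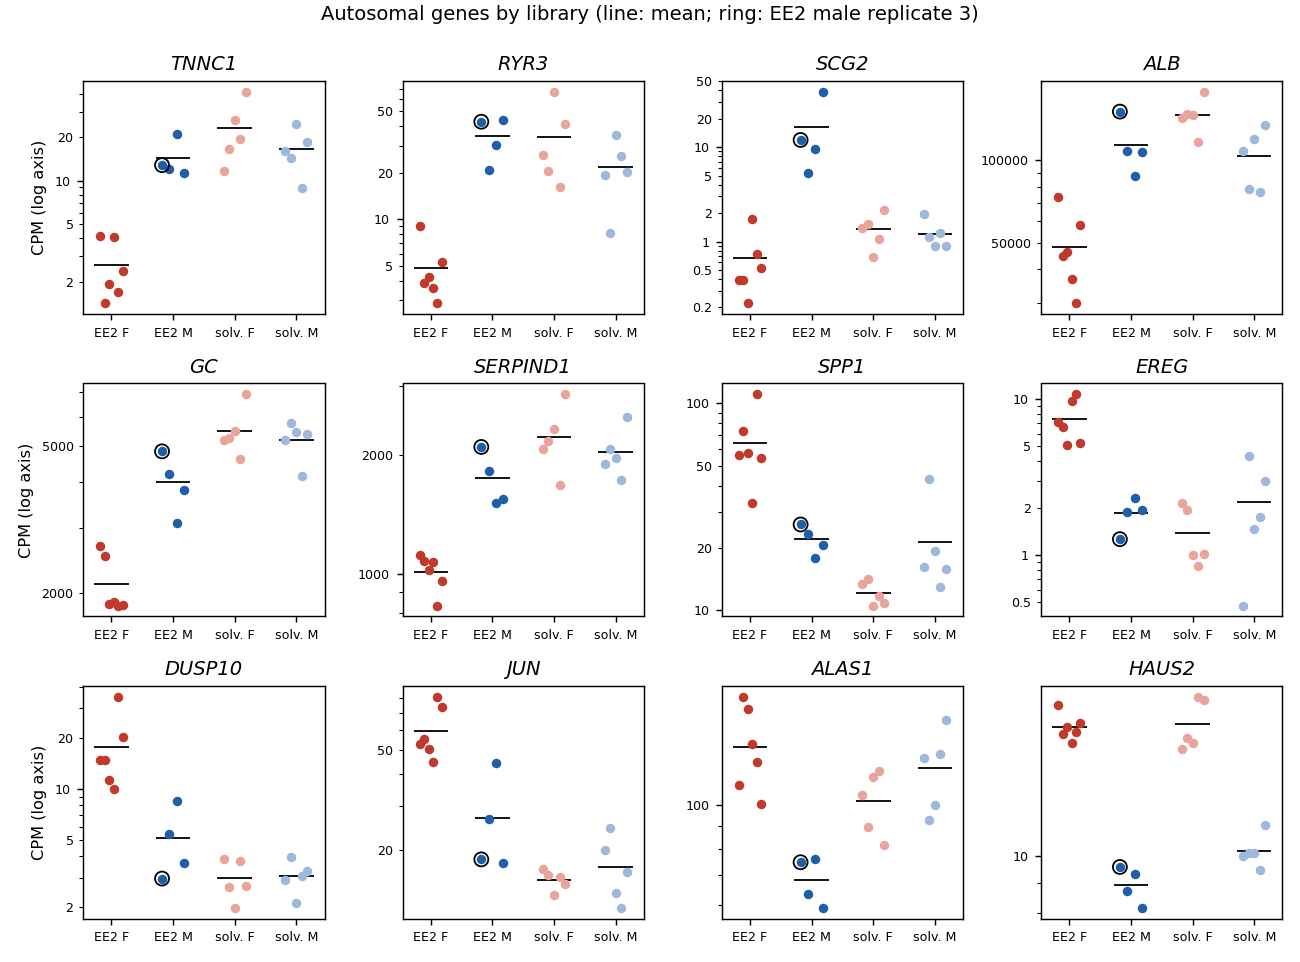
CPM of 12 autosomal genes (log axis) in every library of the 4 groups, with 1 dot per embryo, a line at the group mean and a ring around EE2 male replicate 3. In the panels from TNNC1 to SERPIND1 the EE2 females lie below every EE2 male, and in those from SPP1 to HAUS2 they lie above every EE2 male.

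Several large autosomal differences that were called whichever library was left out were for genes low in EE2 females. SCG2, secretogranin II, a protein of secretory granules in endocrine and nerve cells, was at 0.222, 0.457 and 1.74 CPM in EE2 females (lowest, median, highest) and 11.9, 5.37, 9.45 and 38.8 CPM in EE2 males 3 to 6. All 4 males lay above all females, and male 6 was the highest (log2 fold change -4.60 with SE 0.54, adjusted p = 1.65e-05). The gene stood at 0.694 to 2.17 CPM in solvent females and at 0.888 to 1.94 CPM in solvent males, so the EE2 males also stood above every solvent library. RYR3, a calcium release channel, was at 2.86, 4.05 and 9.05 CPM and 42.9, 20.7, 30.1 and 44.3 CPM (log2 fold change -2.84 with SE 0.419, adjusted p = 0.000273). TNNC1, the troponin C of slow and cardiac muscle, was at 1.42, 2.15 and 4.15 CPM and 12.8, 12, 21 and 11.4 CPM (log2 fold change -2.46 with SE 0.362, adjusted p = 0.000251). Neither gene overlapped between the sexes. In contrast to SCG2, the males of both lay within the solvent range, which was 11.6 to 41.3 CPM in females and 8.92 to 24.6 CPM in males for TNNC1. Without male 3, the log2 fold changes were -4.72 (adjusted p = 3.99e-05) for SCG2, -2.72 (adjusted p = 0.00131) for RYR3 and -2.50 (adjusted p = 0.000711) for TNNC1.

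SAG, the arrestin of photoreceptors in the retina, was low throughout, at 0, 0.03 and 0.285 CPM in EE2 females and 0.846, 0.895, 0.809 and 1.5 CPM in EE2 males (log2 fold change -3.63 with SE 0.676, adjusted p = 0.00235), and at 1.01 to 6.51 CPM in solvent females. Of the loci without a gene name, LOC107316661 was at 15.9, 20.8 and 42.1 CPM in EE2 females and 162, 124, 109 and 86.4 CPM in EE2 males (log2 fold change -2.27 with SE 0.285, adjusted p = 3.66e-05), and LOC107312638 was at 132, 156 and 174 CPM and 319.7, 308, 267 and 296 CPM (log2 fold change -0.94 with SE 0.119, adjusted p = 3.51e-05). Both were free of overlap. COL18A1, the collagen that is the source of endostatin, was at 115, 127 and 156 CPM and 241, 198, 221 and 193 CPM (log2 fold change -0.70 with SE 0.108, adjusted p = 0.000319), and RMDN1, a regulator of microtubule dynamics, at 181, 212 and 257 CPM and 391, 358, 313 and 332 CPM (log2 fold change -0.70 with SE 0.107, adjusted p = 0.0003). All of these kept their call in each of the 20 fits without 1 library. The sex effect differed between treatments for SCG2, RYR3, TNNC1, SAG, both loci, COL18A1 and RMDN1 (adjusted p of the interaction between 0.0139 and 0.0417). Without male 3 that call was lost for LOC107316661 (adjusted p = 0.0562), COL18A1 (0.0996) and SAG (0.0818). Over the 20 fits without 1 library it was lost in 15 for SAG, 12 for COL18A1 and 2 for LOC107316661.

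The same genes are given against solvent embryos of the same sex, in comparisons that share the EE2 libraries with the sex difference. ALB had a log2 fold change of -1.61 in females (SE 0.212, adjusted p = 2.86e-05) and 0.13 in males (SE 0.232, adjusted p = 0.839). GC had -1.38 in females (SE 0.139, adjusted p = 1.51e-06) and -0.38 in males (SE 0.154, adjusted p = 0.205), and SERPIND1 had -1.14 in females (SE 0.128, adjusted p = 5.08e-06) and -0.22 in males (SE 0.142, adjusted p = 0.474). For these 3 plasma protein genes the drop was called in females and not in males, and the difference between the sexes in the effect was called (adjusted p = 0.0232, 0.0293 and 0.0298). That last call held without male 3 for ALB (adjusted p = 0.0487) but not for GC (0.0795) or SERPIND1 (0.0818). Over the 20 fits without 1 library it was lost in 6 for GC and 7 for SERPIND1. TNNC1 had -3.14 in females (SE 0.354, adjusted p = 6.45e-06) and -0.20 in males (SE 0.364, adjusted p = 0.84), and RYR3 had -2.84 in females (SE 0.406, adjusted p = 8.06e-05) and 0.66 in males (SE 0.421, adjusted p = 0.468). For SCG2 it was the males that differed from their solvent group, with -1.02 in females (SE 0.521, adjusted p = 0.182) and 3.75 in males (SE 0.556, adjusted p = 0.000373).

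Fatty acid oxidation genes lay on the male side too, with smaller folds. Of 21 genes for fatty acid oxidation and ketone synthesis, 6 were higher in males and 0 in females, with 14 at an unadjusted p under 0.05 and a median of -0.36. The share higher in males was 2.64% of all autosomal genes, and 1.22% without male 3. The 6 were HADH, ETFDH, HADHB, SLC25A20, CPT2 and CD36. limma voom called 6 and DESeq2 9, all of them higher in males. HADH, the short-chain hydroxyacyl-CoA dehydrogenase, was at 145, 181 and 219 CPM in EE2 females and 299.5, 275, 240.1 and 264 CPM in EE2 males, without overlap (log2 fold change -0.55 with SE 0.118, adjusted p = 0.00781), and it was the 1 gene of the list still called without male 3. SLC25A20, the carnitine carrier of the mitochondrial membrane, was at 114, 120.4 and 140.4 CPM and 244, 169, 141 and 152 CPM, with male 3 far above the others, and its value moved from -0.50 (adjusted p = 0.0314) to -0.30 (adjusted p = 0.181) without that library. Its call was also lost without male 4 or any of females 2, 7, 9 and 10. Of 16 glucose and glycogen genes, whose median was -0.001, 3 were higher in males: PYGL, the liver glycogen phosphorylase (log2 fold change -0.47 with SE 0.0899, adjusted p = 0.0033), PC, pyruvate carboxylase (log2 fold change -0.61 with SE 0.151, adjusted p = 0.02), and GYS2, the liver glycogen synthase (log2 fold change -0.51 with SE 0.146, adjusted p = 0.0416). PYGL alone of these was called without male 3, at -0.39 (adjusted p = 0.0219), against -0.42 (adjusted p = 0.122) for PC and -0.35 (adjusted p = 0.209) for GYS2, which lost its call in 9 of the 20 fits without 1 library.

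The edgeR calls among lipoprotein, thyroid hormone, oxidative stress and matrix genes were all higher in males, beside 2.64% of all autosomal genes. The list medians were -0.36, -0.19, -0.21 and -0.14 in that order. Of the lipoprotein list, 8 of 14 genes were at an unadjusted p under 0.05. Among 14 apolipoprotein and lipoprotein genes, 4 were higher in males: LCAT, which esterifies plasma cholesterol (log2 fold change -1.02 with SE 0.203, adjusted p = 0.00432), LPL, lipoprotein lipase (log2 fold change -0.96 with SE 0.189, adjusted p = 0.00404), LIPC, hepatic lipase (log2 fold change -0.55 with SE 0.129, adjusted p = 0.0142), and APOH. LPL is a Z gene. LCAT and LPL were called without male 3, at -0.68 (adjusted p = 0.0269) and -0.73 (adjusted p = 0.0285), and LIPC was not, at -0.43 (adjusted p = 0.0821). Among genes of the thyroid hormone axis, DIO1, the deiodinase that activates thyroxine (log2 fold change -0.63 with SE 0.134, adjusted p = 0.00668), was higher in males and was still called without male 3, at -0.56 (adjusted p = 0.0366). Of 22 oxidative stress genes, SOD1 (log2 fold change -0.59 with SE 0.13, adjusted p = 0.00877) and GSR (log2 fold change -0.58 with SE 0.145, adjusted p = 0.0207) were higher in males, and GSR was lost without male 3, at -0.48 (adjusted p = 0.0993). In that list limma voom and DESeq2 each called 1 gene higher in females, TXNRD1, a thioredoxin reductase. Of 24 extracellular matrix genes, COL18A1 and FBLN1 were higher in males, and FBLN1 (log2 fold change -0.50 with SE 0.133, adjusted p = 0.0295) was lost without any of 7 EE2 libraries, with a highest adjusted p of 0.127.

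Growth-factor and immediate early genes lay on the female side. Of 26 such genes, 5 were higher in EE2 females (JUN, JUND, ATF3, HBEGF and EGR1) and 0 in males, with 12 at an unadjusted p under 0.05 and a median of 0.43. The share higher in females was 2.35% of all autosomal genes, and 0.721% without male 3. limma voom called 4 and DESeq2 8, all higher in females. JUN, a subunit of the transcription factor AP-1, was at 44.6, 53.7 and 81.3 CPM in EE2 females (lowest, median, highest) and 18.4, 26.6, 44.2 and 17.7 CPM in EE2 males 3 to 6. Male 5 lay just under the lowest female and the other 3 males were far lower (log2 fold change 1.16 with SE 0.248, adjusted p = 0.00781). JUND, another AP-1 subunit, was at 52, 64.5 and 87.3 CPM and 36.2, 46.7, 50 and 38.1 CPM, without overlap (log2 fold change 0.64 with SE 0.137, adjusted p = 0.00781). JUN and JUND were still called without male 3, at 1.01 (adjusted p = 0.0401) and 0.56 (adjusted p = 0.0424). ATF3, a stress-induced transcription factor, was at 6.68, 11 and 19.8 CPM and 2.11, 4.29, 6.18 and 2.56 CPM (log2 fold change 1.62 with SE 0.408, adjusted p = 0.0216), and HBEGF, a ligand of the epidermal growth factor receptor, at 1.3, 3.12 and 4.25 CPM and 1.08, 1.49, 1.29 and 1.71 CPM (log2 fold change 1.13 with SE 0.301, adjusted p = 0.0288). Both lost their call without male 3, at 1.42 (adjusted p = 0.0863) and 1.03 (adjusted p = 0.106). ATF3 also lost it without male 6 or female 9, and HBEGF without male 4, male 5, female 8 or female 9.

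Other leading female-higher genes encode signalling proteins, transporters and enzymes. EREG, epiregulin, another ligand of the epidermal growth factor receptor, was at 5.1, 6.89 and 10.8 CPM in EE2 females and 1.27, 1.9, 2.32 and 1.95 CPM in EE2 males, with male 3 the lowest and no overlap (log2 fold change 2.0 with SE 0.433, adjusted p = 0.00816). DUSP10, a phosphatase that inactivates stress-activated MAP kinases, was at 9.97, 14.8 and 35.1 CPM and 2.96, 5.41, 8.5 and 3.65 CPM, also without overlap (log2 fold change 1.79 with SE 0.345, adjusted p = 0.00345). Without male 3 they were at 1.85 (adjusted p = 0.0402) and 1.60 (adjusted p = 0.0191). SLC26A9, a chloride transporter, was at 0.778, 1.53 and 3.89 CPM and 0.154, 0.186, 0.478 and 0.205 CPM (log2 fold change 2.78 with SE 0.552, adjusted p = 0.0042) and kept its call in each fit without 1 library. GREB1, an estrogen-responsive gene in mammalian cells, was at 4.74, 7.69 and 14 CPM and 1.92, 3.06, 3.79 and 3.48 CPM, without overlap (log2 fold change 1.46 with SE 0.283, adjusted p = 0.00348). It was the 1 gene called of 12 estrogen receptor and coregulator genes tested, beside 2.35% of all autosomal genes higher in females. ESR1, the receptor itself, was at 7.4, 8.56 and 9.91 CPM in EE2 females and 5.61, 8.06, 7.43 and 9.93 CPM in EE2 males (log2 fold change 0.15 with SE 0.236, adjusted p = 0.775), with overlapping groups. ALAS1, the first enzyme of heme synthesis, was at 100.4, 130.3 and 174 CPM and 74.7, 63.5, 76 and 59 CPM (log2 fold change 0.98 with SE 0.167, adjusted p = 0.00101). Its males lay below every solvent library, which spanned 81.5 to 119 CPM in females and 92.5 to 154 CPM in males.

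Against solvent embryos of the same sex, with the EE2 libraries shared as before, JUN had a log2 fold change of 1.97 in females (SE 0.238, adjusted p = 1.32e-05) and 0.63 in males (SE 0.25, adjusted p = 0.196). EREG had 2.39 in females (SE 0.409, adjusted p = 0.000362) and -0.25 in males (SE 0.432, adjusted p = 0.833), and SPP1 had 2.40 in females (SE 0.307, adjusted p = 2.59e-05) and 0.03 in males (SE 0.317, adjusted p = 0.977). In these 3 genes the EE2 females lay above their solvent group. ALAS1 had 0.40 in females (SE 0.153, adjusted p = 0.0713) and -0.82 in males (SE 0.172, adjusted p = 0.00963). In edgeR's interaction test the effect was not called as different between the sexes for JUN. It was called for EREG (adjusted p = 0.0402), SPP1 (0.0232) and ALAS1 (0.0232). The call for EREG was lost in 12 of the 20 fits without 1 library, and those for SPP1 and ALAS1 without male 4.

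Some of the female-higher genes are also markers of bile duct or gut epithelium. SPP1, osteopontin, was at 33.1, 56.8 and 111 CPM in EE2 females and 26, 23.5, 17.8 and 20.6 CPM in EE2 males, without overlap (log2 fold change 1.55 with SE 0.319, adjusted p = 0.00583). SOX9, a transcription factor of bile duct and other progenitor cells, was at 9.16, 11.6 and 27 CPM and 5.77, 4.74, 5.55 and 5.22 CPM (log2 fold change 1.46 with SE 0.355, adjusted p = 0.0179), with all males below all females, and its call was lost without male 3 or male 4 (highest adjusted p 0.0548). These were the 2 called of the 6 cholangiocyte markers tested, beside 2.35% of all autosomal genes higher in females. The summed level of the 6 was 316.2 to 561.6 CPM in EE2 females and 357.7 to 498 CPM in EE2 males. VIL1, villin of the microvillus, was at 1.32, 1.59 and 4.28 CPM and 0.615, 0.597, 0.368 and 0.205 CPM (log2 fold change 2.18 with SE 0.513, adjusted p = 0.0139) and was lost without male 6 (adjusted p 0.0501). It was the 1 called of 4 tested gut and pancreas markers, whose sum was 2.684 to 7.874 CPM in EE2 females and 1.582 to 5.766 CPM in EE2 males. The median log2 fold change of the 4 was -0.28, on the male side and so opposite to VIL1. At an unadjusted p under 0.05 there were 3 of the 4. The part of other epithelia in these values was not tested. Excluding EE2 males 4 and 5 together, which was chosen after seeing the data, ended the calls of SPP1, SOX9 and VIL1, with values of 1.46 (adjusted p = 0.0671), 1.41 (adjusted p = 0.117) and 2.31 (adjusted p = 0.0738).

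Lipid synthesis genes were called in small numbers, beside 2.35% of all autosomal genes higher in females and 2.64% higher in males. Of 17 genes for fatty acid and triglyceride synthesis, 2 were higher in females: LPIN1, a phosphatidate phosphatase and coregulator, at 6.02, 9.96 and 14.2 CPM in EE2 females and 1.92, 3.92, 6.69 and 3.79 CPM in EE2 males (log2 fold change 1.29 with SE 0.296, adjusted p = 0.0123), and FASN, fatty acid synthase, at 67.1, 107 and 123 CPM and 57.6, 73.4, 72.1 and 70.2 CPM (log2 fold change 0.59 with SE 0.15, adjusted p = 0.0233). Both overlapped between the sexes. FASN was lost without male 3 or female 7 (highest adjusted p 0.0985). Of 23 genes for cholesterol synthesis and uptake, 3 of them on Z, the 2 called were both Z genes. HMGCS1, for an early step of the pathway, was higher in females (log2 fold change 0.88 with SE 0.235, adjusted p = 0.0292). STARD4, a cholesterol carrier, was higher in males (log2 fold change -1.47 with SE 0.269, adjusted p = 0.00203). HMGCS1 was lost without any of 6 EE2 libraries, with a highest adjusted p of 0.113.

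With all libraries, the tested genes for yolk and egg-coat proteins were not called between the EE2 sexes in edgeR. The list of yolk precursors and further secretory proteins under estrogen control held 14 genes, of which 7 were tested. It names the vitellogenins VTG1, VTG2 and VTG3, for which no value is given here. Of the 7, edgeR called 0 in either direction, with 3 at an unadjusted p under 0.05. Of all autosomal genes 2.35% were higher in females and 2.64% in males, so 0 of 7 is near that background. limma voom called 0 and DESeq2 1 (RBP4, higher in males). Without male 3 edgeR also called 1 of the 7 higher in males, again RBP4. APOB, the protein of the lipoprotein particles that go to the yolk, was at 32660, 36340 and 38840 CPM in EE2 females and 38470, 38330, 36640 and 40560 CPM in EE2 males, with overlapping groups (log2 fold change -0.09 with SE 0.152, adjusted p = 0.796). ZP1, an egg-coat protein made by the liver of birds, was at 189, 249 and 386 CPM and 112, 234, 210.1 and 176 CPM (log2 fold change 0.55 with SE 0.418, adjusted p = 0.495), and male 3 was the lowest. In solvent embryos ZP1 was 89.9 ± 26.6 CPM in females and 6.5 ± 5.66 CPM in males, a difference that was called (log2 fold change 3.78 with SE 0.46, adjusted p = 3e-05). ESR1 likewise differed between the sexes in solvent embryos (log2 fold change 1.26 with SE 0.235, adjusted p = 0.00314). The sex effect differed between treatments for ZP1 (log2 difference -3.23 with SE 0.59, adjusted p = 0.0232) and was not called as different for ESR1 (adjusted p = 0.111). The call for ZP1 was lost without male 4 (adjusted p = 0.0508). Of 22 endoplasmic reticulum chaperone and stress genes edgeR called 0, with 4 at an unadjusted p under 0.05, and limma voom and DESeq2 called 0 as well. For edgeR, 0 of 22 is also near the background of all autosomal genes.

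Several of the large folds on the male side rested on 1 or 2 libraries. MYBPC3, a myosin-binding protein of heart muscle, was at 0.0297, 0.0769 and 0.395 CPM in EE2 females and 0.384, 3.4, 25.9 and 0.102 CPM in EE2 males 3 to 6 (log2 fold change -5.68 with SE 1.06, adjusted p = 0.00261). Male 5 was the highest, male 4 came next and the other 2 males lay within the female range. TTN, titin, was at 0.724, 1.13 and 1.48 CPM and 2.11, 7.65, 44.1 and 1.13 CPM (log2 fold change -3.63 with SE 0.709, adjusted p = 0.00409), with the same 2 males high. In all, 6 of 11 tested striated muscle markers were called higher in males, beside 2.64% of all autosomal genes. These were MYBPC3, TTN, MYL2, TNNT2, ACTC1 and MYL3. The sum over the 11 markers was 339.2 CPM in EE2 male 5, 79.58 CPM in EE2 male 4 and 9.588 to 30.08 CPM in the other 8 EE2 libraries. The sum was 9.84 to 23.35 CPM in the solvent libraries. Excluding males 4 and 5, an alternative chosen after seeing the data, ended the calls of all 6, with -0.75 (adjusted p = 0.71) for MYBPC3 and -0.54 (adjusted p = 0.59) for TTN, and turned the sign of MYL2 and MYL3. limma voom called 0 of the 11. MYOM2, CASQ2 and RYR2, also muscle genes, lost their calls in the same way, at -0.57 (adjusted p = 0.826), -0.42 (adjusted p = 0.82) and 0.33 (adjusted p = 0.727), the last with its sign turned. SCG2, RYR3, TNNC1 and ALB were still called without males 4 and 5, at -5.23 (adjusted p = 1.18e-05), -3.18 (adjusted p = 0.000909), -2.21 (adjusted p = 0.00596) and -1.42 (adjusted p = 0.0046).

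DDX60, an RNA helicase of the interferon response, was at 2.04, 3.25 and 4.1 CPM in EE2 females and 435, 3.4, 3.79 and 4.84 CPM in EE2 males. Male 3 alone was high, and the other 3 males lay within or just above the female range (log2 fold change -5.13 with SE 1.49, adjusted p = 0.0462). Without male 3 the value was -0.34 (adjusted p = 0.924), and the call was lost in 11 of the 20 fits without 1 library. In solvent embryos the range was 1.94 to 337 CPM in males and 3.47 to 21.4 CPM in females. Of 16 interferon and inflammatory genes tested, edgeR called 0, with 10 at an unadjusted p under 0.05, limma voom called 0 and DESeq2 called 2 (CMPK2 and STAT2, higher in males). In edgeR 2.35% of all autosomal genes were higher in females and 2.64% in males, so 0 of 16 is near that background. The median of the 16 was -0.65 with all libraries and 0.25 without male 3, a change of sign.

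**Figure D3:**
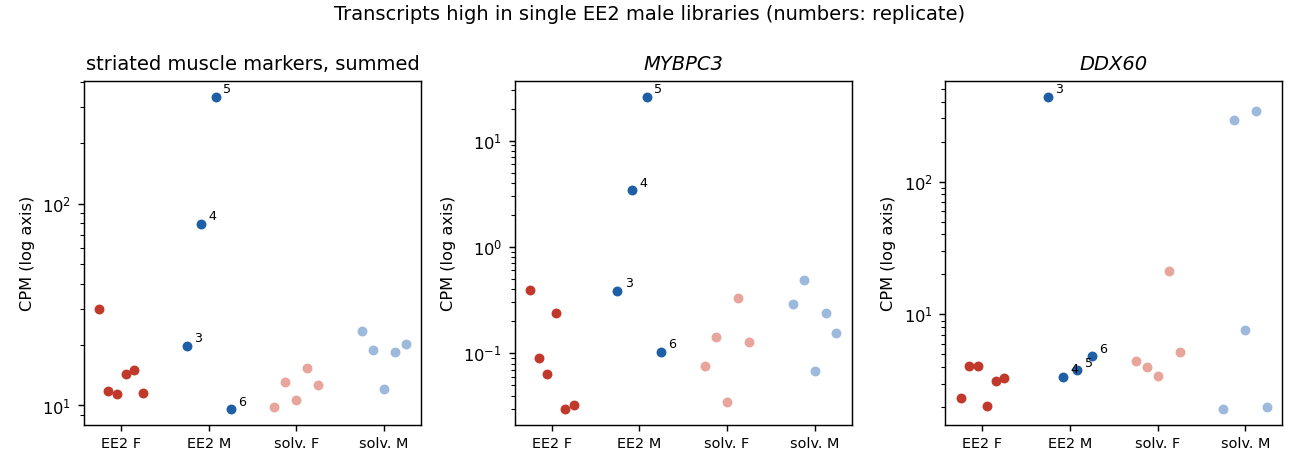
CPM (log axis) of the summed striated muscle markers, of MYBPC3 and of DDX60 in every library of the 4 groups, with EE2 males numbered by replicate. Males 5 and 4 are the highest for muscle (339.2 and 79.58 CPM) and male 3 alone among the EE2 embryos is high for DDX60 (435.4 CPM).

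Few of the tested markers of other cell types were called, and several lists were tested only in part. Of all autosomal genes, 2.35% were higher in females and 2.64% in males. Counts of 0 in lists of this size, or of 1 in 28, are near that background. edgeR called 0 of the tested markers of erythroid cells (4 of 16 listed were tested), macrophages (8 of 11), endothelium (10 of 10) and stellate and mesenchymal cells (12 of 12). It also called 0 for lymphoid cells with granulocytes (2 of 11), kidney and mesonephros (3 of 8) and mesothelium (2 of 6). At an unadjusted p under 0.05 there was 1 macrophage and 1 mesenchymal gene and 0 in the other 5 lists. limma voom called 0 in these lists, and DESeq2 called 1, the macrophage gene CTSS, higher in males. Of 2 gonad and adrenal markers tested (9 listed), INHA was called higher in males, with the list's sum at or below 1.136 CPM at the median of each EE2 group. Of 28 cell cycle genes, CCNE2, cyclin E2, was the 1 called (log2 fold change 0.43 with SE 0.126, adjusted p = 0.0455), and its call was lost in 14 of the 20 fits without 1 library.

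The Z genes were lower in females in both treatments. In EE2 embryos the median female minus male log2 fold change of the 604 Z genes was -0.43, a female to male ratio of 0.741, and 506 of 604 lay below 0. In solvent embryos, which share no library with them, the median was -0.41 (ratio 0.753). Of the 235 genes higher in EE2 males, 229 (97.45%) had the same sign in solvent embryos, where their median was -0.71. Of all Z genes 83.44% lay below 0 in solvent embryos. Solvent embryos had 178 Z genes higher in males (29.5%) and 2 higher in females (0.331%), and 152 of the 178 were among the 235, which is 64.68% of the EE2 calls and 85.39% of the solvent calls. Across the 409 Z genes with a mean of at least 5 CPM, the log2 fold changes of the treatments correlated with Pearson's r of 0.589 and Spearman's rho of 0.669. That correlation is across genes, which are not independent replicates. In the order of genes along Z, all 379 running windows of 31 such genes had a median below 0 in EE2 embryos (-0.69 to -0.27) and in solvent embryos (-0.82 to -0.17).

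RNF20, a ubiquitin ligase for histone H2B, had the smallest p of the Z genes. It was at 62.2, 66 and 67.7 CPM in EE2 females and 129, 120.2, 115 and 120.1 CPM in EE2 males, with a wide gap between the groups (log2 fold change -0.89 with SE 0.0546, adjusted p = 1.02e-08), and in solvent embryos at 69.3 ± 3.63 and 126 ± 4.17 CPM. HINT1, a nucleotide hydrolase with a copy family on W in birds, was at 35.2, 36.5 and 40.8 CPM and 68.7, 81.2, 72.9 and 79.9 CPM (log2 fold change -1.03 with SE 0.0682, adjusted p = 2.07e-08). ATP5F1A, the alpha subunit of ATP synthase, was at 1187, 1219 and 1359 CPM and 3559, 3239, 2658 and 2752 CPM (log2 fold change -1.28 with SE 0.102, adjusted p = 1.26e-07). Without male 3 these 3 were at -0.86 (adjusted p = 5.52e-08), -1.07 (adjusted p = 5.52e-08) and -1.20 (adjusted p = 8.79e-07). HINT2, a mitochondrial relative of HINT1, was at 16.5, 18.7 and 20 CPM and 54.3, 51.8, 55.1 and 62.1 CPM (log2 fold change -1.59 with SE 0.114, adjusted p = 3.24e-08), and its sex effect was larger with EE2 than with solvent (log2 difference -0.80 with SE 0.161, adjusted p = 0.0271), a call lost in 4 of the 20 fits without 1 library. GHR, the growth hormone receptor, was at 103, 117 and 129.9 CPM and 267, 209, 159 and 194 CPM (log2 fold change -0.83 with SE 0.141, adjusted p = 0.000941), and HSD17B4, an enzyme of peroxisomal fatty acid oxidation, at 155, 208 and 228 CPM and 422, 431, 359.6 and 346 CPM (log2 fold change -0.95 with SE 0.109, adjusted p = 1.09e-05).

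The 6 Z genes higher in EE2 females were MIER3, SLC1A1, BRIX1, LOC107306659, HMGCS1 and ZFR. MIER3, a chromatin-associated protein, was at 5.59, 6.31 and 6.6 CPM in EE2 females and 3.34, 3.81, 3.38 and 3.51 CPM in EE2 males (log2 fold change 0.83 with SE 0.124, adjusted p = 0.00023), and in solvent embryos it was also higher in females (log2 fold change 0.78 with SE 0.119, adjusted p = 0.000338). SLC1A1, a glutamate transporter, was at 2.11, 3.13 and 4.05 CPM and 1.58, 1.83, 1.21 and 1.3 CPM (log2 fold change 1.07 with SE 0.222, adjusted p = 0.00573), and was likewise called in solvent embryos (log2 fold change 1.07 with SE 0.215, adjusted p = 0.00663). Of 28 tested genes with a reported copy on the bird W chromosome, 26 of them on Z, 10 were higher in EE2 males and 2 (MIER3 and ZFR) in EE2 females, beside 38.9% and 0.993% of all Z genes, so the male-higher count is near that background. Reads of a Z gene and its W copy may be shared in the deposited counts, which was not tested. A further list was drawn up for the region of Z that is hypermethylated in chicken males. Of its 12 tested genes, 7 were higher in males and 1, MIER3, in females, beside the same shares of all Z genes. Its members are spread along Z, with MRPS36 at place 191 and BTF3 at place 300 in gene order. How near each lies to that region in quail was not tested.

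**Figure D4:**
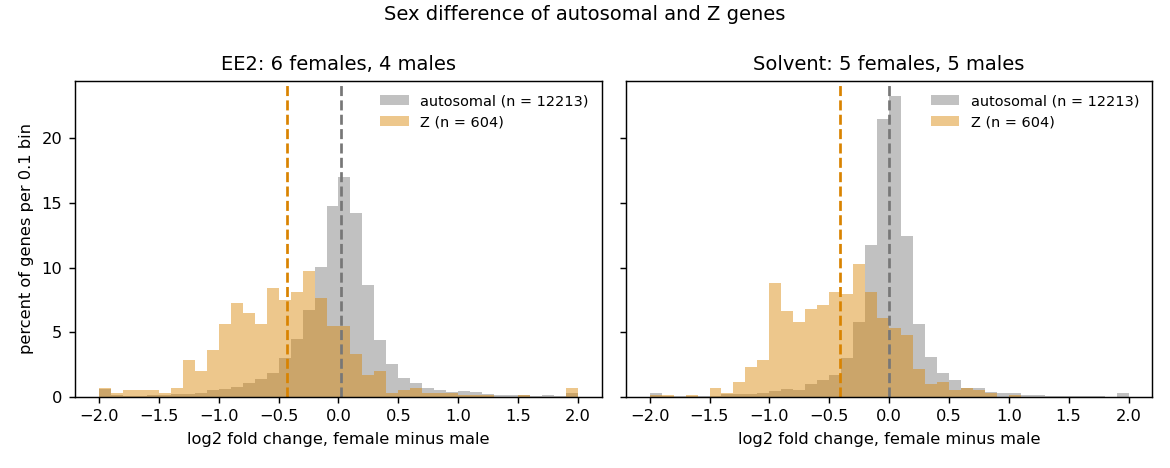
Distribution of the female minus male log2 fold change of autosomal and Z genes in EE2 embryos (left) and solvent embryos (right), as percent of genes per bin of 0.1, with values beyond -2 and 2 placed in the end bins and dashed lines at the medians. The Z medians are -0.43 and -0.41, and the autosomal distribution is wider in EE2 embryos (quartiles -0.17 and 0.17) than in solvent embryos (-0.12 and 0.12).

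Autosomal genes called between the EE2 sexes were mostly not called in the solvent embryos. There, 39 autosomal genes were higher in females (0.319%) and 11 in males (0.0901%). The 287 genes higher in EE2 females had a median log2 fold change of 0.004 in solvent embryos. Of them 146 (50.87%) had the same sign there, beside 50.76% of all autosomal genes above 0. The 323 genes higher in EE2 males had a median of 0.05, and 122 (37.77%) had the same sign, beside 49.23% of all autosomal genes below 0. In the same direction, 6 of the 287 were called in solvent embryos, which is 2.091% of the EE2 list and 15.38% of the 39 solvent calls. At an unadjusted p under 0.05 in edgeR there were 37 of the 287 in that direction, and limma voom called 6 and DESeq2 10. For the 323 male-higher genes, edgeR called 0 in the same direction in solvent embryos, with 9 at an unadjusted p under 0.05, limma voom called 0 and DESeq2 2. Across 8897 autosomal genes with a mean of at least 5 CPM, the values of the treatments had Pearson's r of 0.159 and Spearman's rho of -0.05. The sex effect itself differed between treatments, in a test that shares the EE2 libraries, for 32 autosomal genes toward females (0.262%) and 99 toward males (0.811%). These 131 calls fell to 23 without EE2 male 3 and 21 without EE2 male 4, and changed by more than 1.5 times in 15 of the 20 fits without 1 library. With all libraries they included 29 of the 287 and 69 of the 323 genes called between the EE2 sexes, so for most of those genes a different sex effect was not called. Of the 29 interaction calls among the genes chosen for naming, 7 were made in every such fit (ALB, SCG2, RYR3, TNNC1, RMDN1, LOC107312638 and LOC107317030), 11 without male 3 and 8 without male 4.

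The 6 autosomal genes higher in females under both treatments were HAUS2, LOC107307728, DIS3L2, TMEM51, SLC35B4 and LOC107325623. HAUS2, a subunit of the augmin complex of the mitotic spindle, had the smallest p of the autosomal genes. It was at 15.5, 16.3 and 18 CPM in EE2 females and 9.57, 8.73, 9.3 and 8.15 CPM in EE2 males, without overlap (log2 fold change 0.88 with SE 0.0826, adjusted p = 7.34e-07), and at 16.6 ± 1.63 and 10.2 ± 0.665 CPM in solvent females and males (log2 fold change 0.71 with SE 0.0792, adjusted p = 6.46e-06). DIS3L2, an exoribonuclease, was at 35, 41.8 and 46.4 CPM and 24.5, 28.1, 26 and 24.7 CPM (log2 fold change 0.67 with SE 0.088, adjusted p = 5.34e-05), and in solvent embryos at 32.6 ± 2.43 and 25.4 ± 2.57 CPM. Without EE2 male 3, HAUS2 was at 0.92 (adjusted p = 3.73e-06) and DIS3L2 at 0.64 (adjusted p = 0.000514). UAP1, an enzyme that makes the sugar donor for glycoproteins, was called in opposite directions: it was 34 ± 5.29 CPM in EE2 females (SD, n = 6) and 23.5 ± 2.78 in EE2 males (SD, n = 4), but 20.8 ± 2.18 in solvent females and 28.9 ± 4.39 in solvent males. Its sex effect differed between treatments (adjusted p = 0.0176). The adjusted p was 0.0126 for the EE2 call and 0.0469 for the solvent call, close to the threshold of 0.05. The EE2 call of UAP1 was not made in every fit without 1 library.

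**Figure D5:**
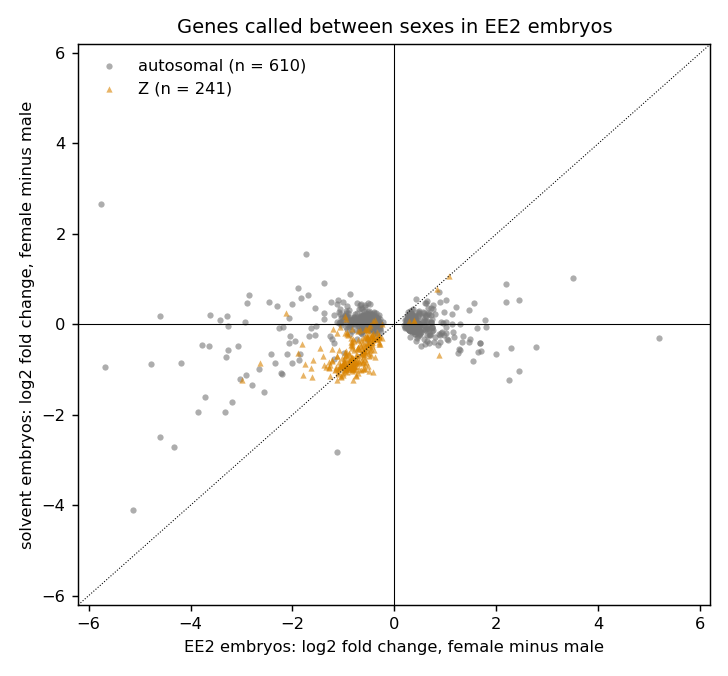
Female minus male log2 fold change in EE2 embryos (horizontal) and in solvent embryos (vertical) for the 610 autosomal and 241 Z genes called in EE2 embryos, with a dotted line of equality. Of the 241 Z genes, 229 lie below 0 on both axes and 6 lie above 0 on the horizontal axis. Most autosomal genes lie near 0 on the vertical axis on both sides.

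Mitochondrial transcripts made up 5.86 ± 0.635% of EE2 female libraries (SD, n = 6) and 7.17 ± 0.345% of EE2 male libraries (SD, n = 4). The shares differed in a two-sided exact permutation test (p = 0.00952, adjusted over 3 shares 0.0143). The highest female (replicate 8, 6.8413%) lay just under the lowest male (replicate 6, 6.8446%). Of the 13 mitochondrial genes, 5 (ND5, ND4, ND2, COX3 and ND1) were called higher in males, beside 2.64% of all autosomal genes. ND5, a subunit of respiratory complex I, was 4413 ± 467 CPM in EE2 females and 7293 ± 369 CPM in EE2 males (log2 fold change -0.72, SE 0.149, adjusted p = 0.00548). All 13 had a negative log2 fold change in EE2 embryos (median -0.54) and a positive one in solvent embryos (median 0.11). The sex effect was not called as different between treatments for any of the 13 in edgeR's interaction test (lowest adjusted p 0.0761, ND5). The mitochondrial share in solvent embryos was 7.16 ± 1.17% in females and 7.15 ± 1.01% in males. The top 10 genes by level held a smaller part of the female libraries as well, 22.5 ± 1.54% against 27.5 ± 1.01% in males (exact permutation test, p = 0.00952, adjusted 0.0143). ALB, described above, counts toward this share. Abundant mitochondrial transcripts such as COX1 (17600 CPM in EE2 females, 24600 CPM in EE2 males) can do so too. ALB, the mitochondrial share and the top 10 share are therefore not separate results. In solvent embryos the top 10 share was 27.3 ± 2.12% in females and 23.3 ± 2.11% in males, the opposite order. Of 25 nuclear-encoded respiratory chain genes, 3 were higher in males: ATP5F1A and NDUFS4, both on Z, and NDUFA10 (log2 fold change -0.35 with SE 0.102, adjusted p = 0.0477), whose call was lost in 15 of the 20 fits without 1 library. Of all Z genes 38.9% were higher in males, and of all autosomal genes 2.64%, so the 1 autosomal call is near its background.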

How the data were processed

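The deposited values are the authors' estimated counts for each coding sequence, in 2 tables. Per the submitters' processing notes they came from kallisto, whose version, transcript set and genome build are not given in the sources used here. It divides reads shared by similar transcripts, so loci with near-identical copies are uncertain. Values were summed per gene over 40934 coding sequences and then rounded, which left 16066 genes. Names, Z membership and the order of genes along Z (by start position) came from the RefSeq annotation of Coturnix japonica 2.1, in which every gene was found. Both tables held the same values, and the locus table served as an alternative.

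edgeR 4.0.16 (R 4.3.3) tested all 20 libraries in 1 fit with a mean per group, after filterByExpr (minimum count 10, total 15), TMM scaling and a robust quasi-likelihood fit, two-sided. The threshold was an adjusted p of 0.05 (Benjamini-Hochberg), and the biological coefficient of variation was 0.245. CPM use TMM-scaled library sizes, which ranged from 15298506 to 32119466 counts before scaling, and the first principal component uses log2(CPM + 0.5). SE were derived from the F statistics. Alternatives were DESeq2 1.42.0, limma 3.58.1 (voom), other scalings and filters, and each library left out. Libraries of 1 group differed by a chi-square of at least 30.31 per gene, so none was merged.

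The genes compared, the gene lists and the tests were chosen with earlier results of these data known. Named genes were called genes with at least 1 CPM in the higher sex: the 10 largest named autosomal folds and 5 smallest p per direction, the leading Z genes (6 higher in males, 4 in females), locus-only genes (3 per direction) and unplaced genes (4), up to 4 per list and direction, and ALB, APOB, ESR1 and ZP1 whatever their call (DMRT1 and HINTW, also in the rule, were not among the genes tested). C8B, ITIH2, F9, CFI, F2, FETUB, EGR1, CPT2, CD36, INHA, CMPK2, STAT2, CTSS, RBP4, UAP1, TMEM51, SLC35B4 and the mitochondrial genes were named from list, overlap or class counts after their values were seen. Not every gene that met the rule is reported here.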

Additional observations from a re-analysis of the deposited data

Results flagged for a closer look

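In 12 of 220 groups (2 groups for each of the 110 named genes) 1 library lay far from the others of its sex, by the gap to its neighbour on the log2 scale, and chance gives about 1 in 20. EE2 male 3 was the highest for DDX60 (435.4 CPM), the lowest for SRPRA (103.9 CPM). EE2 female 1 was the highest for TNNT2 (3.39 CPM), the highest for ACTC1 (8.13 CPM), the highest for MYOM2 (0.921 CPM), the highest for CASQ2 (0.691 CPM). EE2 male 6 was the highest for SAG (1.5 CPM). EE2 female 8 was the lowest for GSR (26.1 CPM), the highest for LOC107307728 (27.1 CPM), the highest for VIL1 (4.28 CPM). EE2 female 9 was the highest for YWHAG (62.5 CPM). EE2 male 5 was the highest for TRAF7 (35 CPM).

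For 29 named genes the female minus male difference itself differed between EE2 and solvent embryos in edgeR's interaction test (adjusted p between 0.0139 and 0.0474). Of these calls, 22 were lost in at least 1 fit without 1 library, while 11 were made without EE2 male 3 and 8 without EE2 male 4. The difference was more negative with EE2, on the log2 scale, by -4.78 for SCG2, -4.21 for LOC107307810, -3.82 for SAG, -3.50 for RYR3, -3.23 for ZP1, -2.98 for LOC107317629, -2.94 for TNNC1, -2.18 for LOC107316661. Further values in that direction were -1.74 for ALB, -1.13 for LPL, -1.11 for LOC107312638, -1.0 for GC, -0.91 for SERPIND1, -0.84 for AMBP, -0.83 for RMDN1, -0.80 for HINT2, -0.77 for SOD1, -0.69 for COL18A1. It was more positive with EE2 by 3.46 for LOC107317030, 2.64 for EREG, 2.37 for SPP1, 2.25 for GDF15, 1.86 for LPIN1, 1.56 for HMGCS1, 1.22 for ALAS1, 1.0 for JUND, 0.91 for FASN, 0.51 for TRAF7, 0.44 for YWHAG.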

How the results depend on the processing

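No paired analysis was possible because EE2 females and EE2 males share no replicate number, and neither do solvent females and males. Autosomal calls depended most on the libraries used. With 1 library left out, autosomal genes higher in EE2 females numbered 89 to 346 and those higher in EE2 males 151 to 355, Z genes 4 to 7 and 194 to 240, and the median log2 fold change lay between -0.45 and -0.42 for Z and between 0.0133 and 0.0270 for autosomes. Sex differences in solvent embryos numbered 33 to 50 and interactions 21 to 170, against 50 and 131 with all libraries. The DESeq2 Wald test gave 488 and 514 autosomal genes, 11 Z genes higher in females, 106 solvent differences, 422 interactions and an autosomal median of 0.00384. A fit on the libraries of 1 treatment only gave 186 autosomal genes higher in females and 31 solvent differences. Excluding EE2 males 4 and 5 gave 190 female-higher autosomal genes and reversed MYL2 (0.91), MYL3 (1.52) and RYR2 (0.33). The autosomal median was 0.0305 under upper-quartile scaling, 0.0312 without males 4 and 5 and 0.00535 under TMM over autosomal genes. The Z share of counts was lower in females by -0.669 percentage points, and -0.586 without EE2 male 3 (exact permutation test, adjusted p = 0.0286 and 0.0714). The mitochondrial share differed by -1.31 and -1.35 and the share of the 10 most abundant genes by -4.97 and -4.83. Of the 107 named genes called, 107 kept direction and call under DESeq2 size factors, upper-quartile scaling and the DESeq2 Wald test, 93 under limma voom, 84 in the fit on 1 treatment and 73 without EE2 male 3. The cause of these changes was not tested.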

Other observations

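Of the genes on unplaced scaffolds, 6 of 671 were higher in EE2 females and 11 in EE2 males. Both shares were below the 2.35% and 2.64% of autosomal genes. LOC107307810 was at 0.211, 0.369 and 0.592 CPM in EE2 females (lowest, median, highest) and 1.34, 4.96, 0.993 and 2.42 CPM in EE2 males 3 to 6 (log2 fold change -2.71 with SE 0.599, adjusted p = 0.00954), and its call was lost without male 4 (adjusted p = 0.0545). TMBIM6, an inhibitor of cell death in the endoplasmic reticulum membrane, was at 173, 186 and 194 CPM and 258, 260.0, 215 and 225 CPM (log2 fold change -0.38 with SE 0.0912, adjusted p = 0.0171), with no overlap, and its call was lost without male 3 or male 4. OPLAH, an enzyme of the glutathione cycle, was higher in females, at 8.06, 11.7 and 14.3 CPM and 4.65, 4.78, 7.91 and 7.81 CPM (log2 fold change 0.88 with SE 0.21, adjusted p = 0.0155), and was lost without the same libraries.

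Several genes with moderate folds separated the sexes closely. YWHAG, a 14-3-3 adaptor protein, was at 50.1, 51.4 and 62.5 CPM in EE2 females and 39.6, 37.2, 40.7 and 39.3 CPM in EE2 males (log2 fold change 0.44 with SE 0.0706, adjusted p = 0.000567). TRAF7, a ubiquitin ligase, was at 41.7, 43.9 and 51.2 CPM and 30.3, 30.9, 35 and 30.6 CPM (log2 fold change 0.49 with SE 0.0768, adjusted p = 0.000391). LYPLA2, a thioesterase that removes palmitate from proteins, was at 30.7, 33 and 34.8 CPM and 27.4, 23.7, 24.2 and 25.2 CPM (log2 fold change 0.39 with SE 0.0613, adjusted p = 0.000401). None of the 3 overlapped between the EE2 sexes, and each kept its call in every fit without 1 library. In solvent embryos YWHAG was 38.6 ± 1.74 CPM in females and 38.7 ± 2.9 CPM in males (SD, n = 5 each), and TRAF7 was 30.5 ± 2.08 and 30.9 ± 2.54 CPM.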
